A study of Mus musculus with 4 samples.

Results

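The HoxD cluster is the run of 9 homeobox genes on mouse chromosome 2 that, read along the + strand, holds Hoxd13, Hoxd12, Hoxd11, Hoxd10, Hoxd9, Hoxd8, Hoxd4, Hoxd3 and Hoxd1. The members were taken by gene symbol, and all 9 were found among the 24421 genes counted. From the start of Hoxd13 to the end of Hoxd1 they span 96.8 kb (chr2:74668310-74765142, GRCm38). RNA of R1, an established mouse ESC line, was sequenced as Illumina TruSeq libraries in the Undiff and Day4 states, with 2 biological replicates of each that were grown and treated separately. The methods of the study describe Undiff as R1 cells kept with leukaemia inhibitory factor, whereas the sample labels call it embryoid bodies. Day4 is embryoid bodies, which are floating aggregates of ESCs, grown for 4 days without that factor and then for 4 days with RA, at 2 µM in the methods and 2 mM in the labels. The methods name RA for Day4 and not for Undiff, and no altered gene in either state. Because Day4 differs from Undiff in the withdrawn factor and in the aggregate culture as well as in RA, the contribution of each cannot be told apart here.

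Hox genes encode homeodomain transcription factors that give cells their position along the head-to-tail axis of the embryo. Within a cluster the genes numbered low are classically switched on first and nearest the head, and those numbered high later and nearer the tail, an order known as colinearity. RA is a textbook inducer of Hox genes in ESCs and acts most directly on the low-numbered end. In the HoxD cluster, Hoxd1, Hoxd3 and Hoxd4 form the low-numbered end, Hoxd8 and Hoxd9 the middle, and Hoxd10 to Hoxd13 the high-numbered end, which is best known for patterning limbs, digits and the genital tubercle.

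In Day4, 7 of the 9 HoxD genes were higher than in Undiff, and 0 were lower, also at an unadjusted edgeR p under 0.05 and by DESeq2. The 7 were Hoxd1, Hoxd3, Hoxd4, Hoxd8, Hoxd9, Hoxd10 and Hoxd11. Of the high-numbered end, Hoxd10 and Hoxd11 were thus higher, whereas Hoxd12 stayed at or below the detection floor in all 4 libraries and the Hoxd13 levels of the states overlapped. In Undiff, Hoxd13 alone took 54.7% and 50% of the HoxD counts of the libraries, against 1.33% and 1.37% in Day4. A gene was called a DEG at an adjusted p of at most 0.05 if its log2 fold change was at least 1 in size and its normalized counts averaged 5 or more. Of the 19891 genes tested, 42.8% were DEGs, 22.2% being higher in Day4 and 20.6% lower. The median log2 fold change was 6.46 over the 9 HoxD genes (6.57 over the 7 that were called), against -0.027 over all genes tested. Setting Hoxd3 and Hoxd12, both without a count in Undiff, at the bound that the floor gives left the median of the 9 at 6.46. Neither gene changed its side of the median by this, so the median could not move. It is the fitted value of Hoxd10, which held 2 and 1 reads in Undiff and was not bounded. The median of the 9 is thus not a measured size.

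Library totals ran from 32099074 to 47730944 counts assigned to genes. A floor of 3 counts corresponded to between 0.0615 and 0.0959 CPM (counts scaled to the library total after TMM) and it covers counting error only. The common dispersion of the fit gave a biological coefficient of variation of 3.66%. Normalized counts are counts scaled to the same library size of 37436677. The RNA came from mixed cells, so more cells that express a gene and more RNA per cell cannot be told apart.

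The promoters of Hoxd9, Hoxd4, Hoxd12 and Hoxd13 are printed because they set the members that rose beside those that did not, and because they span the range of CG content in the cluster. Each covers 250 bases before and 50 bases after the gene start in RefSeq on GRCm38.p6, read 5′ to 3′, with every CG dinucleotide in capitals. Dense CG marks the CpG island type of promoter, which is the type that Polycomb complexes commonly occupy in ESCs.
Hoxd9 promoter, chr2:74697513-74697812, + strand: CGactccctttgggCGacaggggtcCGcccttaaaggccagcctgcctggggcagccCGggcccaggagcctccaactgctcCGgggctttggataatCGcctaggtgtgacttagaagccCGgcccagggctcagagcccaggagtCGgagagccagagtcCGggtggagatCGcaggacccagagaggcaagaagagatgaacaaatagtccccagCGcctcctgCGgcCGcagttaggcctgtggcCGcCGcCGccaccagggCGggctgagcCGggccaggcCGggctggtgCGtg
Hoxd4 promoter, chr2:74721728-74722027, + strand: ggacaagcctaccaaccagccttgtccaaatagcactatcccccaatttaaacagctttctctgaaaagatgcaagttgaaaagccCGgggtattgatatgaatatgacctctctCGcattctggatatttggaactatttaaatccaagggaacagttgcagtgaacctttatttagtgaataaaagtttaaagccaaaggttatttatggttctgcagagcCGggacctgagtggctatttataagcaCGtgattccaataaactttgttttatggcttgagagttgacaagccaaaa
Hoxd12 promoter, chr2:74674763-74675062, + strand: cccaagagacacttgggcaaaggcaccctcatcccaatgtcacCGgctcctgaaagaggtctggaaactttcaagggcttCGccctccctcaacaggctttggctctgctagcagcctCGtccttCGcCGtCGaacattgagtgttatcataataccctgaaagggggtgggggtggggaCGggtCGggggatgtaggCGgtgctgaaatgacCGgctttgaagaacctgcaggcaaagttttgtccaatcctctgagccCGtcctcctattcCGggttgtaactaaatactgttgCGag
Hoxd13 promoter, chr2:74667975-74668274, + strand: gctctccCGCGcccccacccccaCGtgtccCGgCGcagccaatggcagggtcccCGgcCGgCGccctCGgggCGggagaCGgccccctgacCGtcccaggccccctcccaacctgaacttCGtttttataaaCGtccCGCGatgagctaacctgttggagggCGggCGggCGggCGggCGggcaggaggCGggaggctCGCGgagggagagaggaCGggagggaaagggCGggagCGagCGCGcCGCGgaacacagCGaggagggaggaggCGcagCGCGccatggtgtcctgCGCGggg
The Hoxd13 promoter held 37 CG dinucleotides with a GC content of 74.3%, more CG than 94.4% of the 32851 promoters in the RefSeq table, whose median was 7. That of Hoxd12 held 13 and that of Hoxd9 held 20. The Hoxd4 promoter held only 4, with a GC content of 39.7%. Hoxd4, with the fewest CG of the 4, and Hoxd9 were both higher in Day4. Hoxd13, with the most, and Hoxd12, with fewer than Hoxd9, were not called. Counts per gene do not show which promoter was used. All 9 members were matched to 10 promoters, Hoxd11 having a pair with 4 and 25 CG. The rest held 29 (Hoxd1), 20 (Hoxd3), 6 (Hoxd8) and 22 (Hoxd10). Hoxd11 and these genes were all called higher in Day4. A link of the CG number to the calls was not tested.

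Retinoic acid response elements are direct repeats of a 6-base core, here AGGTCA or a variant of it (AGTTCA, or GGGTCA, or else GGTTCA), searched on both strands. None of the 10 HoxD promoters held such a repeat with 5 bases between the cores, as did 0.0974% of all promoters, and none held one with 2 bases between them, as did 0.268%. The core itself, in any number of copies, was present in 5 of the 10, against 43.7% of all promoters. The letters TATAAA on either strand were present in the Hoxd13 and Hoxd4 promoters and in 13.6% of all. These are matches of letters in windows of 300 bases and say nothing about sites elsewhere.

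At the low-numbered end, Hoxd1, the first of the cluster in the classical order, was counted at 16.7 and 8.38 normalized counts in Undiff replicates 1 and 2 and at 159.8 and 191 in Day4 replicates 1 and 2. Both Day4 libraries lay above both Undiff libraries, and Hoxd1 was the called member with the smallest fold change. Its log2 fold change was 3.78 ± 0.26 (SE, n = 2 per state, edgeR adjusted p = 1.4e-08), a ratio of counts of 13.9 with a 95% counting interval of 9.12 to 22.2. The log2 fold change ranged from 3.40 to 4.39 when each library was left out, the highest without Undiff replicate 1.

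Hoxd3, a low-numbered member that overlaps Hoxd4, had no count in either Undiff library and 452 and 565 normalized counts in the Day4 libraries (mean 509 ± 79.7 SD, n = 2). It was at least 151.5-fold higher in Day4, taking 3 counts per library as the floor of Undiff (edgeR adjusted p = 1.6e-10). Hoxd4 held 1 and 2 reads in the Undiff libraries and 464 and 628 in the Day4 libraries, or 485 and 482 normalized counts in Day4 (mean 483 ± 1.80 SD, n = 2). Its ratio was 289, with a wide counting interval of 98.7 to 1405 because Undiff held 3 reads in all (edgeR adjusted p = 1.6e-12). Its fitted log2 fold change was 8.07. It ranged from 7.59 to 8.70 when each library was left out, the highest without Undiff replicate 2. For both genes the states did not overlap, and the Undiff libraries lay at or below the floor.

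The middle of the cluster held the most abundant HoxD transcripts of Day4. Hoxd8 rose from 5.21 and 10.8 normalized counts in Undiff to 712 and 789 in Day4 (mean 751 ± 54.3 SD, n = 2). Hoxd9 rose from 7.29 and 7.18 to 722 and 742 (mean 732 ± 14 SD, n = 2). Both genes were above the floor in every library, so that their folds are measured on both sides. The log2 fold change was 6.57 ± 0.20 for Hoxd8 (SE, edgeR adjusted p = 2.2e-12). It was 6.64 ± 0.17 for Hoxd9 (SE, edgeR adjusted p = 6.6e-13). As ratios of counts these were 97.0 (interval 57.7 to 178) and 101 (59.1 to 191), and the intervals overlap across most of their width. These counting intervals are wider than the SE values imply, the SE being derived from the edgeR F statistic.

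Hoxd10 and Hoxd11, the first genes of the high-numbered end and known for limb patterning, were lower in Day4 than the middle genes but far above Undiff. Hoxd10 held 2 and 1 reads in the Undiff libraries and 166 and 150.5 normalized counts in Day4. Its ratio was 94.0, with a counting interval of 31.9 to 458 (edgeR adjusted p = 7.3e-10). Hoxd11 held 3 and 1 reads in the Undiff libraries and 171 and 111 normalized counts in Day4, the Day4 replicates standing farther apart than those of Hoxd10. Its ratio was 61.4, with an interval of 23.7 to 227 (edgeR adjusted p = 7.5e-08). Its fitted log2 fold change was 5.87. It ranged from 5.40 to 6.70 when each library was left out, the highest without Undiff replicate 1.

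Hoxd12, a limb and genital patterning gene, had no read in either Undiff library and 1 read in each Day4 library, so that both states were at or below the floor and no fold is given (edgeR adjusted p = 0.17). Hoxd13, which is known for specifying digits, held 42.7 and 31.1 normalized counts in Undiff and 38.7 and 42.2 in Day4. The states overlapped, with means of 36.9 ± 8.21 and 40.4 ± 2.53 (SD, n = 2). Its log2 fold change was 0.13 ± 0.26 (SE, edgeR adjusted p = 0.67), and the ratio of 1.09 had a counting interval of 0.788 to 1.52, which covers counting error only. Leaving out Undiff replicate 2 turned its sign, to -0.070 (edgeR adjusted p = 0.85). Both Day4 libraries lay above both Undiff libraries for 8 of the 9 members, the exception being Hoxd13, and for 42.7% of all genes tested. The 8 include Hoxd12, whose reads all lay below the floor.

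**Figure D1:**
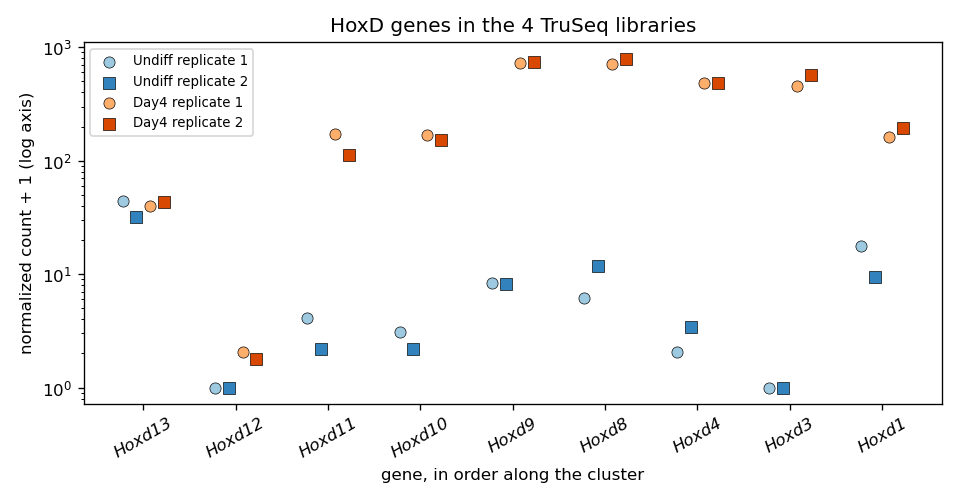
Normalized counts of the 9 HoxD genes in each of the 4 libraries, as normalized count + 1 on a log axis, with the genes in order along the cluster; points are libraries. The normalized counts in Day4 of Hoxd3, Hoxd4, Hoxd8 and Hoxd9 lie between 452 and 789, whereas all 4 of Hoxd13 lie between 31.1 and 42.7.

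Levels were compared between genes per kb of exon, as TMM-scaled CPM divided by the merged exon length of the annotation. The level in Day4 rose and fell along the cluster, with its top in the middle. Hoxd9 was highest at 9.03 and 9.27 CPM per kb and Hoxd8 came next at 6.94 and 7.68. Hoxd4 followed at 4.39 and 4.37 and Hoxd3 at 2.88 and 3.60. Down to Hoxd3 the replicates of neighbours in this order did not overlap. Hoxd1, at 2.29 and 2.74, and Hoxd10, at 2.44 and 2.21, overlapped and cannot be ordered. Hoxd11 stood lower at 1.09 and 0.706, Hoxd13 at 0.416 and 0.454, and Hoxd12 last at 0.0110 and 0.00809, a level below that of the floor. The order is a description of 2 libraries, and differences between genes were not tested. With the longest transcript as the length, Hoxd4 (5.06 and 5.03) and Hoxd3 (4.07 and 5.09) overlapped.

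In Undiff the order was another. Hoxd13 was highest at 0.460 and 0.335 CPM per kb, and Hoxd1 came next at 0.239 and 0.120. Hoxd9, at 0.0912 and 0.0898, and Hoxd8, at 0.0507 and 0.105, overlapped. Among the 38 Hox genes listed from the 4 clusters, Hoxd13 ranked 2 in Undiff by mean level and 34 in Day4. Hoxd9 ranked 14 in Day4 and was the highest of the HoxD genes. A Hoxd13 level of this size rests on 41 and 26 reads in the Undiff libraries and 37 and 55 in the Day4 libraries.

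**Figure D2:**
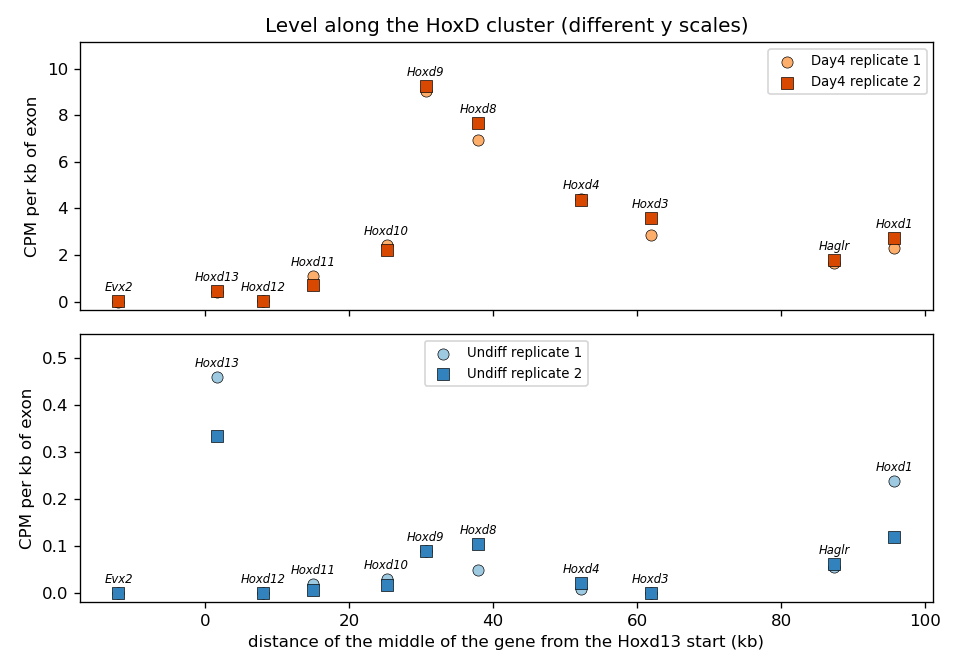
TMM-scaled CPM per kb of exon against the position of the middle of each gene along chromosome 2, in kb from the Hoxd13 start, for Day4 (top) and Undiff (bottom, on a smaller scale); points are libraries. In Day4 the level peaks at Hoxd9 (9.03 and 9.27) and in Undiff at Hoxd13 (0.460 and 0.335).

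Some of these genes share sequence with neighbours in GENCODE vM21, the annotation used here for positions and lengths. The authors counted on an mm10 annotation from UCSC, in which these overlaps were not examined. Hoxd3 and Hoxd4 lie on the same strand and begin at nearly the same base in GENCODE (chr2:74711927-74748442 and chr2:74711929-74729160), while RefSeq starts Hoxd4 at 74721978. Of the Hoxd3 exon bases, 409 are shared with exons of other counted genes, as are 388 of those of Hoxd4. Reads that the counting of the authors could not give to a single gene are not among these counts. Hoxd3os1 and Haglr lie on the opposite strand. The methods say that strandedness was taken into account in gene counts without naming the setting for TruSeq. For exon counts they ran TruSeq as unstranded. The strand of the reads counted for these genes is thus not known, and antisense reads cannot be told apart from theirs.

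The summed HoxD reads were 75 and 52 in the Undiff libraries and 2784 and 4004 in the Day4 libraries. As CPM they were 2.09 and 1.66 in Undiff and 77.7 and 82.1 in Day4. Of all reads on the 38 listed Hox genes, HoxD genes took 27.2% (95% exact binomial interval 22.0 to 32.8) and 21.3% (16.3 to 27.0) in Undiff, and 5.14% (4.96 to 5.33) and 5.36% (5.20 to 5.52) in Day4. HoxD reads were thus more abundant in both Day4 libraries while their share of the Hox reads was lower. Of the HoxD reads in Undiff, 54.7% and 50% were those of Hoxd13, whose levels in the states overlapped. The mean HoxD shares were 24.2% ± 4.15 and 5.25% ± 0.152 (SD, n = 2). The two-sided exact permutation test gave p = 0.333, the smallest that 2 libraries against 2 allow. Within HoxD the largest shares of Day4 reads were those of Hoxd8 (24.5% and 25.7%) and Hoxd9 (24.8% and 24.1%). In Undiff these genes took 6.67% and 17.3%, and 9.33% and 11.5%.

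**Figure D3:**
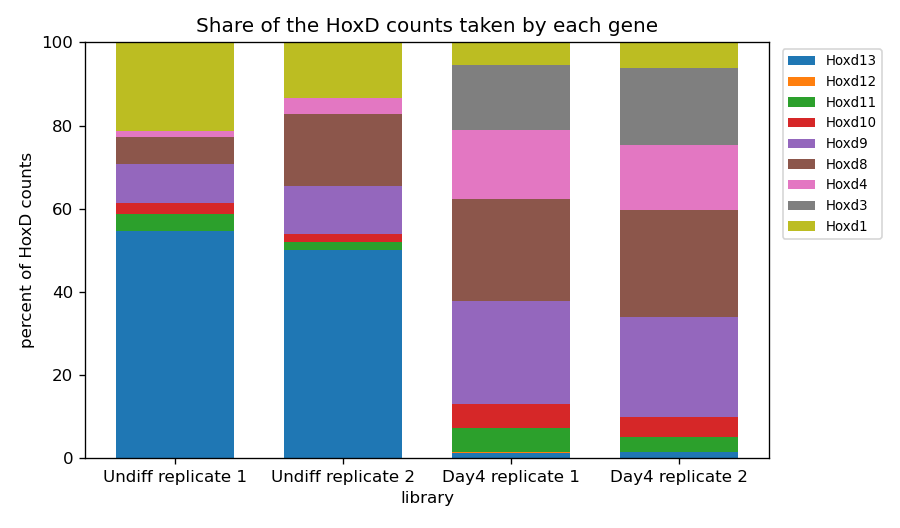
Share of the summed HoxD counts taken by each member in each library, in percent, as stacked bars. Hoxd13 takes 54.7% and 50% in Undiff and 1.33% and 1.37% in Day4, where Hoxd8 and Hoxd9 are the largest segments.

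Members of the other Hox clusters with the same number (paralogues) arose from a common ancestral gene and are set beside the HoxD genes in Day4 as levels per kb, without a test. Hoxd9 was the exception in lying above all of its paralogues, Hoxa9 (2.32 and 2.21 CPM per kb), Hoxb9 (2.76 and 2.02) and Hoxc9 (4.81 and 4.21). Hoxd3, Hoxd4 and Hoxd10 lay below all of theirs. For Hoxd4 the gap was wide, with Hoxa4 at 91.7 and 93.5, Hoxc4 at 33.7 and 34.8 and Hoxb4 at 23.1 and 22.7. For Hoxd3 it was narrower, with Hoxa3 at 6.47 and 6.32 and Hoxb3 at 22.6 and 23.0. Hoxd8, Hoxd11 and Hoxd13 lay between their listed paralogues or overlapped them. The HoxA genes listed end at Hoxa11, so that Hoxd13 is set beside Hoxb13 and Hoxc13 only. Hoxd13 was below Hoxb13 (5.82 and 6.60) and above Hoxc13 (0.0794 and 0.133). These positions were the same with the longest transcript as the length.

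**Figure D4:**
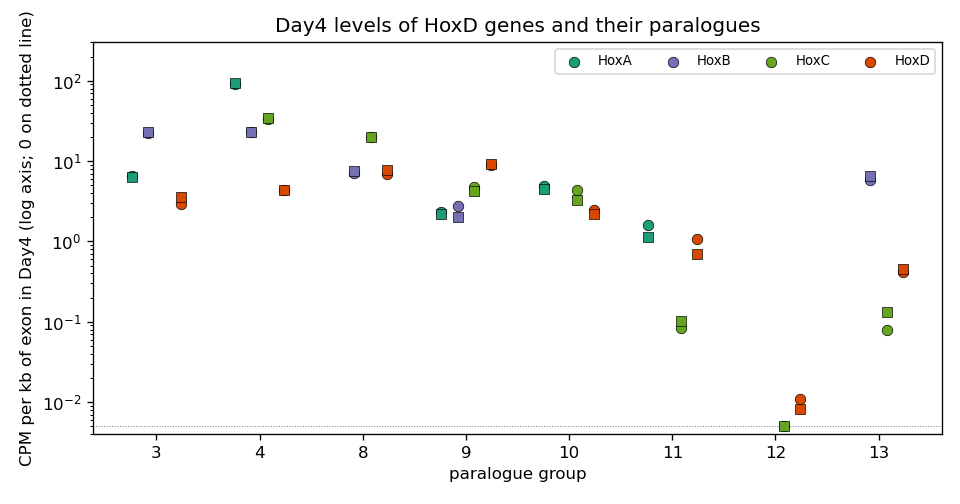
TMM-scaled CPM per kb of exon in Day4, on a log axis, for the HoxD genes other than Hoxd1. Beside them are their listed paralogues in the HoxA, HoxB and HoxC clusters. Circles are replicate 1 and squares replicate 2, and a level of 0 is drawn on the dotted line. Hoxd9 lies above its paralogues, and Hoxd4 lies below Hoxa4, Hoxb4 and Hoxc4.

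Of the 29 HoxA, HoxB and HoxC genes listed, 26 were higher in Day4, 1 was lower and 2 were not called, with a median log2 fold change of 8.25, or 7.34 with genes at 0 in Undiff set at their bound. All 10 HoxA genes listed and all 10 HoxB genes were higher, as were 6 of 9 HoxC genes. Hoxc13 was lower, at a log2 fold change of -1.50 ± 0.38 (SE, edgeR adjusted p = 0.0027), while Hoxb13 was higher at 5.38 ± 0.20 (SE, edgeR adjusted p = 1.6e-11). Hoxd13, at 0.13, thus had a value between those of Hoxb13 and Hoxc13, its paralogues among the genes listed. No difference between clusters was tested.

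The noncoding gene Haglr, which is transcribed on the opposite strand between Hoxd3 and Hoxd1, rose from 6.25 and 7.18 normalized counts in Undiff to 190.1 and 201 in Day4. Its log2 fold change was 4.85 ± 0.25 (SE, edgeR adjusted p = 7.4e-10). Hoxd3os1, another antisense gene, held 0 reads in both Undiff libraries and 6 and 7 in the Day4 libraries. Its mean was 5.82 normalized counts in Day4 but lay under 5 over all libraries, so it was not called (edgeR adjusted p = 0.0063). The microRNA gene Mir10b, which lies inside the cluster, held 2 reads in each Day4 library and none in Undiff.

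The genes flanking the cluster moved little beside its members. Of 9 protein-coding neighbours listed, 1 was higher in Day4, 0 were lower and 8 were not called by edgeR, with a median log2 fold change of 0.042. Mtx2, a mitochondrial import gene on the Hoxd1 side, was the 1 called, with 1560 and 1533 normalized counts in Undiff and 3106 and 3199 in Day4, a log2 fold change of 1.03 ± 0.05 (SE, edgeR adjusted p = 3.7e-10). It lay close to the threshold and was not called under 6 alternatives, where its log2 fold change was between 0.98 and 1.00. Evx2, the homeobox gene next to Hoxd13, held 0 reads in both Undiff libraries and 0 and 2 in the Day4 libraries. Lnp, on the far side of Evx2, had a log2 fold change of -0.47 ± 0.05 (SE), under the size that a DEG requires, and it was the 1 neighbour lower at an unadjusted edgeR p under 0.05. DESeq2 called 0 neighbours lower.

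**Figure D5:**
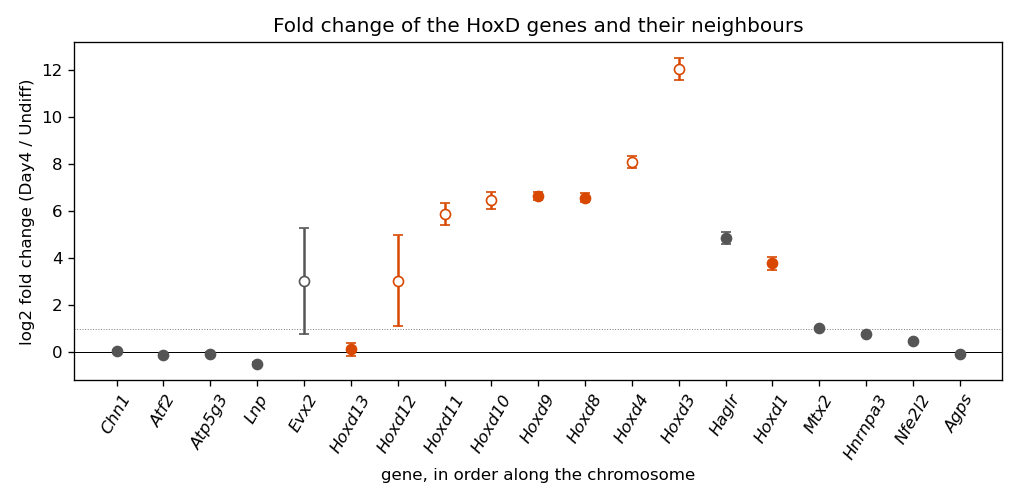
Log2 fold change, Day4 against Undiff, of the HoxD genes (orange) and of Haglr and the neighbouring genes (grey), in their order along chromosome 2; bars are SE, open circles are genes with 3 reads or fewer in both Undiff libraries, whose fitted value is not a measured size, and the dotted line marks 1. Hoxd8 (6.57) and Hoxd9 (6.64) lie far above Mtx2 (1.03) and Lnp (-0.47). The SE is derived from the edgeR F statistic and can be smaller than the counting error at low counts.

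Genes of the RA pathway were listed beside the cluster, and of 10, 8 were higher in Day4, 1 was lower and 1 was not called, with a median log2 fold change of 3.44. Cyp26b1, an enzyme that degrades RA, had the largest change among them at 9.78 ± 0.09 (SE, edgeR adjusted p = 1.3e-16). Rarb, the RA receptor whose own gene responds to RA, changed by 9.56 ± 0.09 (SE, edgeR adjusted p = 2.3e-16). Dhrs3, a retinal reductase, had the highest level of the list in Day4, at 119 CPM per kb. Rarg, the receptor that was lower, had a log2 fold change of -1.02 ± 0.05 (SE, edgeR adjusted p = 2.0e-10), close to the threshold, and it was not called with library totals in place of TMM or without Undiff replicate 2.

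Of 11 partners and upstream factors of Hox proteins, 7 were higher in Day4, 2 were lower and 2 were not called, with a median log2 fold change of 2.43. Meis2, a cofactor that binds DNA with Hox proteins, rose by a log2 fold change of 8.53 ± 0.08 (SE, edgeR adjusted p = 1.9e-16), and Pbx2, another cofactor, had the highest Day4 level at 59.5 CPM per kb. Cdx1, a caudal factor that acts upstream of Hox genes, was lower at -2.0 ± 0.46 (SE, edgeR adjusted p = 0.0015). Of 15 Polycomb, trithorax and insulator genes, whose products hold Hox clusters silent or active, 5 were higher, 5 lower and 5 not called, with a median of -0.0088. Cbx7, a Polycomb reader, had the lowest log2 fold change of the list at -4.37 ± 0.06 (SE, edgeR adjusted p = 2.5e-15), and Rnf2, a Polycomb ubiquitin ligase, had the highest Day4 level at 53.7 CPM per kb.

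Markers of the cell types that the cultures could hold moved with the states, as did HoxD. All 9 pluripotency genes listed were lower in Day4, their summed level falling from between 4775 and 4814 CPM in Undiff to between 20.9 and 26.6 in Day4. None of them was at 0 in Day4. All 7 endoderm markers were higher, from a summed 7.07 to 8.5 CPM to 541.5 to 549 CPM, with 1 of them at 0 in Undiff. Gata4 and Gata6, which mesoderm expresses too, held 528 to 537 CPM of this in Day4, and the other 5 summed to between 1.25 and 1.31 CPM in Undiff and between 12.5 and 13.04 CPM in Day4. Of the mesoderm and mesenchyme markers, 5 of 7 were higher and 1 was lower, from 11.3 to 12 CPM to 422 to 427 CPM. Of 9 fibroblast or feeder markers, 6 were higher and 3 lower, from 1435 to 1524 CPM to 1827 to 1956 CPM. This sum joins changes of opposite sign, since Fn1, which held most of it in Undiff, had a log2 fold change of -2.26 ± 0.05 (SE, edgeR adjusted p = 5.6e-14) and Col3a1 of 9.14 ± 0.09 (SE, edgeR adjusted p = 2.3e-16). Of 7 neural progenitor markers, 1 was higher and 4 were lower, from 122 to 123 CPM to 107 to 118 CPM. This sum, too, joins changes of opposite sign in the genes that held most of it. Tubb3 had a log2 fold change of -3.82 ± 0.08 (SE) and Nes of 1.24 ± 0.06 (SE). Of 3 neural crest markers, 1 was lower and 2 were not called, from 11.6 to 12.5 CPM to 1.23 to 1.66 CPM. This fall was that of Foxd3, which held most of the Undiff sum. Foxd3 had 356 and 348 reads in Undiff and 1 and 0 in Day4. The part of these cell types in the HoxD values was not tested.

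The genes whose pattern was most like that of Hoxd9 were found by the distance over the 4 libraries between values of log2(CPM + 0.1). The nearest 5 were Ncald (distance 0.156), Kcna5 (0.253), Tbx18 (0.380), Pcdhb22 (0.424) and Spock3 (0.435). Ncald held 6 and 6 reads in Undiff and 665 and 985 in Day4, beside 7 and 6, and 691 and 966, for Hoxd9. Over 4 libraries in 2 states this distance reflects level and fold only.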

How the data were processed

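RNA of mouse R1 ESCs was analysed in 4 Illumina TruSeq libraries, 2 of Undiff and 2 of Day4, grouped by the sample labels. Per the labels and methods, the authors used cutadapt for trimming, STAR 2.4.2a for alignment to mm10, and htseq-count for counting uniquely aligned fragments per gene. The deposited values are these raw counts, and the authors left out fragments shared by several genes. Fragments on no gene were between 7.50% and 13.2% of all counted fragments, and those on more than 1 gene between 1.84% and 1.91%. Neither enters the library sizes. The methods name a strand setting for the gene counts of ONT direct RNA only. ONT data were not analysed here.

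Counts were scaled by TMM and Day4 was tested against Undiff with edgeR 4.0.16 (glmQLFit with legacy = FALSE, glmQLFTest) in R 4.3.3 over all 19891 genes with a count, adjusted by Benjamini-Hochberg. The thresholds are those of the study. Ratios carry 95% counting intervals. The SE of a log2 fold change is its size over the square root of the edgeR F statistic. At low counts this SE can be smaller than the counting error. Shares carry exact binomial intervals (SciPy 1.17.1). Gene positions and exon lengths are from GENCODE vM21 on GRCm38, matched by symbol for 98.3% of genes. Promoters are from RefSeq.

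The 9 members and all lists were chosen with earlier results of these data known. All members were named. From other lists, the highest and lowest called log2 fold change and the highest Day4 level were named. Single genes were named further where a comparison rests on them, chosen after their values were seen. These were Rarb, Hoxb13, Lnp, Evx2, Gata4, Gata6, Fn1, Col3a1, Foxd3, Tubb3 and Nes. Mira had been listed with the noncoding genes of the cluster but lies on another chromosome and was left out. A few named genes are not reported here. The alternatives were DESeq2 1.42.0 with the settings of the study and without its prior, other scaling factors, filterByExpr, a replicate block, thinning, other thresholds, other lengths, and leaving out each library in turn.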

Additional observations from a re-analysis of the deposited data

How the results depend on the processing

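The 7 HoxD genes called higher numbered 7, and those called lower 0, under every alternative run, leaving out each library included (7 to 7 and 0 to 0). The log2 fold change of Hoxd13 ranged from -0.070 to 0.39 when each library was left out, the lowest without Undiff replicate 2. The replicate numbers showed no pairing (r = -0.0166 over 14643 genes between replicate differences of the states), and the fit with a replicate block called 8515 genes, against 8521, with 7 HoxD genes among them and Hoxd13 at 0.14. DESeq2 with the settings of the study called 8114 genes. The older edgeR quasi-likelihood fit, chosen after seeing the data, called 8518. Hoxd12 was removed by filterByExpr and has no value there.

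Neighbours called higher fell from 1 to 0 under DESeq2 with either setting, DESeq2 size factors in edgeR, filterByExpr and thinning to the smallest library. They ranged from 0 to 1 when a library was left out, with 0 without Day4 replicate 2. With no minimum fold change, 3 neighbours were higher and 1 was lower, against 0 lower. With no minimum mean count, 2 noncoding genes were called, against 1. RA genes called lower fell from 1 to 0 with library totals, ranged from 0 to 1 when a library was left out (0 without Undiff replicate 2) and came to 2 with no minimum fold change. By the longest transcript the Day4 level of Hoxd3 was 4.58 and that of Hoxd4 5.04 CPM per kb. With only exon bases not shared, chosen after seeing the data, Hoxd4 was again at 5.04. With library totals Hoxd4 was at 4.48 and Hoxd9 at 9.36. Counted per kb, HoxD took 4.81% of the Hox level in Day4. The cause of these moves was not tested, beyond the thresholds and lengths themselves. With 3 reads or fewer in Undiff, the folds of Hoxd3, Hoxd4, Hoxd10 and Hoxd11 are limited by depth.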
